A study of Gallus gallus with 27 samples.

Results

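The genes described here carry glucose through glycolysis to lactate and move lactate across the cell membrane. They were chosen by symbol, as 10 listed symbols looked up in a table of 14161 gene rows, and 9 of the 10 had a row. The 9 are SLC2A1, HK1, HK2, PFKP, ENO1, LDHA, LDHB, SLC16A1 and SLC16A3. PGK1, a phosphoglycerate kinase, had no row under that symbol and was skipped. A row under the symbol PGK2 was present but was not taken as PGK1. The list was drawn up knowing that SLC16A1 was among the largest differences between suspension and primary cells in these libraries. SLC16A1 is therefore described without a test wherever those cells enter, and all 9 genes are described without a test for suspension against primary cells.

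In glycolysis, a membrane carrier lets glucose in, a hexokinase traps it by phosphorylation, and phosphofructokinase commits it to breakdown. Enolase acts near the end of the pathway, and lactate dehydrogenase then interconverts pyruvate and lactate. Lactate crosses the membrane with a proton through monocarboxylate carriers. In mammals, SLC16A1 (MCT1) carries lactate in or out, and SLC16A3 (MCT4) is known mainly as an exporter in strongly glycolytic cells.

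RNA of 27 chicken (Gallus gallus) libraries was sequenced in 9 groups of 3, and the series design speaks of 3 biological replicates of primary and immortalized cells. CEF2 and CEF4 were primary embryonic fibroblasts of the breeds Broiler Ross 308 and Israeli Baladi. CF2 (Broiler Ross 308) and CF4 (Israeli Baladi) were immortalized fibroblasts. SCF2 and SCF4 were spontaneously immortalized, anchorage-independent fibroblasts grown in shaken suspension, and no transgene was described. For SCF2 and SCF4 the source name names one breed and the breed field the other, so only line 2 and line 4 are used as names. DF1 is an established immortal chicken fibroblast line, labelled East Lansing Line 0. SDF1 libraries carry the same breed label and are labelled anchorage-independent. CF and DF1 are called attached here because they lack that label. FAT was labelled Fat, of Israeli Baladi, without saying whether it was tissue or cultured cells. The protocol shared by all libraries of the second set describes adding oleic acid and lecithin to immortalized fibroblasts, without saying which libraries received it. The protocols give DMEM with 10% serum at 39 °C, and count lines as immortal after at least 120 population doublings. Each numbered line is 1 culture lineage, so limma p-values measure the spread between libraries within groups and not between lineages. That spread is pooled over all groups of a fit, so the scatter of 1 line enters the p-values of the other. CEF and SCF form a first deposited set and the other groups a second, so any CF library compared with CEF or SCF differs in set as well as in group, and set and group cannot be told apart. Comparisons that use the same control libraries are not independent of each other.

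Values are normalized reads, that is reads divided by 1 factor per library, given as mean ± SD with n = 3 unless each library is listed. The cultured libraries held 12.3 to 28.7 M (mega) reads and FAT 4.6 to 10.4 M. The 9 genes together took 0.151% to 0.592% of the reads in FAT, 0.607% to 0.612% in SDF1 and 0.947% to 1.449% in the other groups. Levels are not compared between genes, because the table gives no gene length. All 10 fibroblast markers were present in the table, and their summed level was highest in CEF4 and lowest in CF4 (medians of 1101753 and 62441). Of 9 adipocyte markers, the summed level was 89482 to 367864 in FAT and at most 3204 in every cultured library. FAT also held endothelial, leukocyte, erythroid and skeletal muscle markers. In such mixed bulk samples, fewer cells of a type and less RNA per cell cannot be told apart. Library 3 of DF1 stood apart, with a correlation of 0.954 to 0.956 with the other DF1 libraries against 0.994 between those. Leaving out that library, or library 3 of FAT, changed some calls, signs or values by over 1.5 times. For changes of the 9 genes, the value without it is then given.

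**Figure D1:**
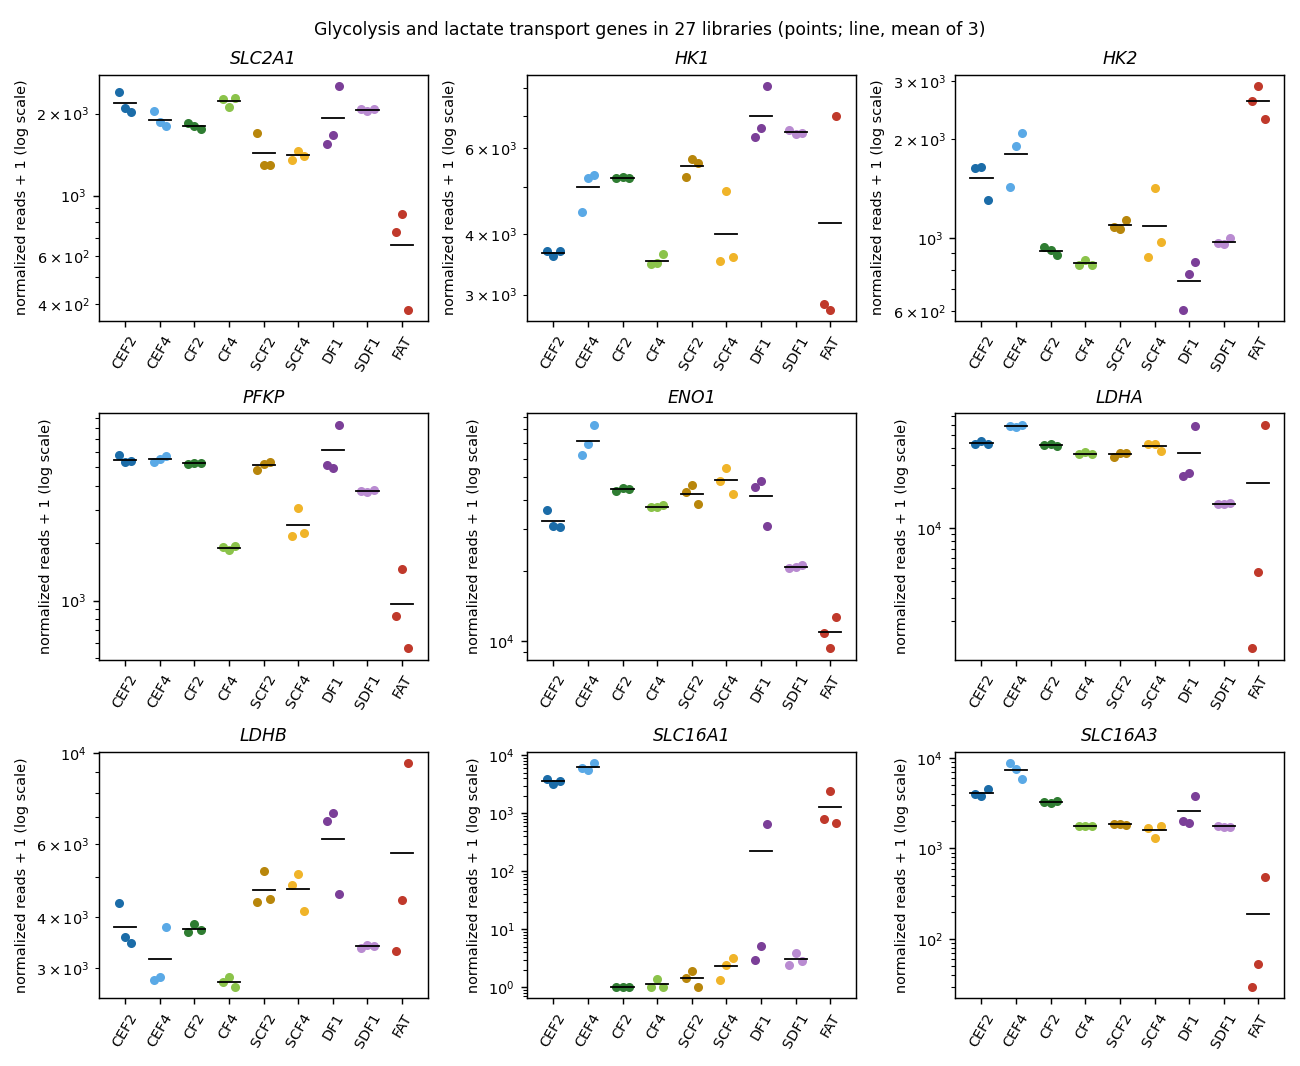
Normalized reads plus 1 (log axis, a separate scale in each panel) of the 9 genes in each library, with 3 points and a line at the mean for each of the 9 groups. SLC16A1 is 3236 or more in all CEF libraries and below 5 in all CF, SCF and SDF1 libraries. Library 3 of DF1 and library 3 of FAT lie away from their groups in several panels.

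SLC16A1 measured 3844, 3236 and 3556 in CEF2, and 5960, 5652 and 7226 in CEF4. It had 0 reads in all CF2 libraries, 1 read over the CF4 libraries, 3 reads over SCF2 and 8 over SCF4. The gene was therefore close to undetected in both immortal lines, attached or in suspension, and no primary library came near those values. Against a floor of 3 reads over the CF2 group, CEF2 was at least 10605-fold higher. CEF2 exceeded SCF2 by a ratio of 8182, with a 95% counting interval of 2800 to 39674. The ratio of CEF4 to CF4 was 51038 (9160 to 2015890), and that of CEF4 to SCF4 was 4789 (2431 to 11093). These intervals cover counting error only. In the authors' deposited table the log2 difference between primary and suspension cells was 12.34 in line 2 and 12.72 in line 4.

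SLC16A1 was also low in the DF1 lineage, with one exception. The DF1 libraries measured 1.99, 4.23 and 661, and the SDF1 libraries 1.46, 2.84 and 1.86. Library 3 of DF1 was high and the other DF1 libraries overlapped SDF1. The log2 difference of SDF1 from DF1 was -2.86 ± 1.57 (SE), which limma did not call (adjusted p = 0.157). Without library 3 of DF1 it was -0.40 (limma, adjusted p = 0.348), and without library 1 it was -4.29 (limma, adjusted p = 0.0445). edgeR on the recovered reads also called it, at -6.81 with an adjusted p of 0.0267. In FAT the gene measured 803, 2386 and 680. All FAT libraries were far above the immortal CF4 and below both primary cultures. FAT exceeded CF4 by a ratio of 10482 (1881 to 414013, counting error only). The gene passed the filter on low values there only through the FAT libraries, so no test of that difference is given. The order of group means was CEF4, CEF2, FAT, DF1, SDF1, SCF4, SCF2, CF4 and CF2. No neighbours among the first 4 overlapped, and each later neighbour overlapped the next.

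SLC16A3 differed in another way, since it stayed readily measurable in every cultured library. CEF4 libraries held 8658, 7585 and 5879 and CEF2 libraries 3952, 3818 and 4506, so the 2 primary cultures did not overlap. CF2 held 3215, 3212 and 3330, whereas CF4 held 1788, 1769 and 1775. SCF2 held 1852, 1869 and 1806, and SCF4 held 1682, 1317 and 1752. The 2 suspension lines thus lay close to each other and to CF4, with CF2 well above them. SLC16A3 was called lower in CF2 than in CEF2 (log2 change -0.33 ± 0.12, limma adjusted p = 0.0191), a call lost without replicate 3 of CEF2 (-0.26, limma adjusted p = 0.0913). It was called lower in CF4 than in CEF4 by a wider margin (-2.03 ± 0.12, limma adjusted p = 2.45e-11). SCF2 was called lower than CF2 (-0.82 ± 0.12, limma adjusted p = 1.73e-05), while SCF4 was -0.18 ± 0.12 from CF4 and not called (limma adjusted p = 0.246). In suspension against primary cells the log2 difference was -1.15 ± 0.14 in line 2 and -2.21 ± 0.14 in line 4. FAT held 28.5, 52.3 and 478, all far below every cultured library. The log2 change of FAT from CF4 was -4.29 ± 0.84 (limma adjusted p = 0.00152). Leaving out 1 library moved it between -5.49, without library 3 of FAT, and -3.48, without library 1.

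A single factor per library cancels in a ratio of 2 genes, apart from the pseudocount of 1. The log2 ratio of SLC16A1 to SLC16A3 was -0.21 ± 0.15 in CEF2 and -0.22 ± 0.45 in CEF4. In CF2, CF4, SCF2 and SCF4 it lay between -11.70 and -9.07. In FAT it was 4.77, 5.49 and 0.51, so SLC16A1 gave more reads than SLC16A3 in each FAT library. FAT did not overlap CF4 in this ratio. No test of it is given, since SLC16A1 passed the filter there only through the FAT libraries.

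Lactate dehydrogenase is a tetramer of A and B subunits. LDHA predominates in glycolytic tissue and skeletal muscle, and LDHB in heart and other oxidative tissue. LDHA measured 42759, 45113 and 43328 in CEF2 and 58994, 57795 and 60111 in CEF4. CF2 held 42482, 43288 and 41611, and CF4 held 36079, 37603 and 35940. SCF2 held 34326, 37073 and 36859, and SCF4 held 43265, 43124 and 37924. CEF4 was above every CF and SCF library. LDHA was called lower in CF4 than in CEF4 (-0.69 ± 0.06, limma adjusted p = 1.69e-08), yet quantile normalization turned that change to 0.94 (limma adjusted p = 1.87e-10). CF2 was -0.04 ± 0.06 from CEF2 and not called (limma adjusted p = 0.56), and quantile normalization gave 0.49, called (limma adjusted p = 1.46e-06). The direction of LDHA between primary and immortal cells therefore depends on the scaling.

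LDHB measured 4316, 3561 and 3444 in CEF2 and 2813, 2856 and 3783 in CEF4. In CF2 it was 3670, 3841 and 3717, and in CF4 2771, 2845 and 2694. In SCF2 it was 4344, 5167 and 4407, and in SCF4 4766, 5093 and 4134. Suspension libraries of either line were above the attached libraries of the same line, without overlap. SCF4 was called higher than CF4 (0.75 ± 0.11, limma adjusted p = 3.86e-05). SCF2 was called higher than CF2 (0.31 ± 0.11, limma adjusted p = 0.0372), but that call was lost under TMM scaling (0.20, limma adjusted p = 0.177) and in 4 of 6 fits that left out 1 library. With the replicate number as a block the SCF2 value was 0.31 and not called (limma adjusted p = 0.0519).

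The log2 ratio of LDHA to LDHB separated CF from SCF libraries, but not DF1 from SDF1. In CF2 it was 3.53, 3.49 and 3.48, and in SCF2 2.98, 2.84 and 3.06. In CF4 it was 3.70, 3.72 and 3.74, and in SCF4 3.18, 3.08 and 3.20. Both suspension lines were below their attached lines without overlap, by -0.54 in line 2 and -0.57 in line 4. Each difference had an exact permutation p of 0.1, the smallest possible with 3 against 3, and 0.133 after adjustment over 16 ratio tests. The 16 count the ratio of SLC16A1 to SLC16A3 in FAT against CF4, for which no p is given. CEF4 stood highest at 4.24 ± 0.22, above CEF2 at 3.54 ± 0.20 without overlap. CEF2 overlapped CF2, with a difference of -0.04 and an exact permutation p of 1. These ratios were not recomputed after quantile normalization, which does not cancel in a ratio.

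**Figure D2:**
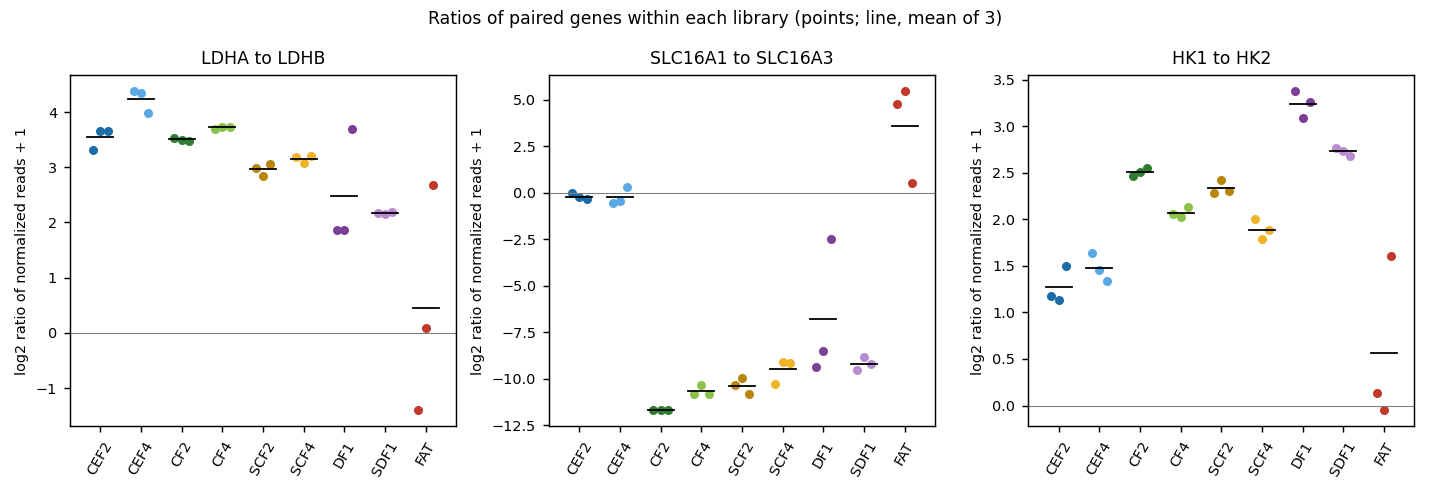
Log2 ratio of normalized reads plus 1 for 3 gene pairs in each library (points) with the mean of 3 (line), by group. SCF2 and SCF4 lie below CF2 and CF4 for LDHA to LDHB, and CEF lies near 0 for SLC16A1 to SLC16A3 where CF and SCF lie below -9, and library 3 of DF1 lies apart in the first 2 panels.

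At the head of the pathway, SLC2A1 (GLUT1) is the basal glucose carrier of many cell types. It measured 1843, 1794 and 1750 in CF2 and 1698, 1297 and 1299 in SCF2. It measured 2270, 2121 and 2285 in CF4 and 1351, 1463 and 1398 in SCF4. Each suspension line was below its attached line without overlap. SLC2A1 was called lower in SCF2 than in CF2 (-0.34 ± 0.10, limma adjusted p = 0.00771) and in SCF4 than in CF4 (-0.66 ± 0.10, limma adjusted p = 2.18e-05). Primary CEF2 held 2407, 2101 and 2028 and CEF4 2040, 1857 and 1806, overlapping each other. CF2 was called lower than CEF2 (-0.28 ± 0.10, limma adjusted p = 0.0157) and CF4 higher than CEF4 (0.23 ± 0.10, limma adjusted p = 0.0413). The CF4 call was lost in 4 of 6 fits that left out 1 library, and the CF2 call in 2 of 6.

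The hexokinases phosphorylate glucose on entry, and HK2 is the insulin-responsive form of muscle and fat in mammals. HK2 measured 1633, 1640 and 1305 in CEF2 and 1428, 1899 and 2088 in CEF4. It measured 943, 919 and 886 in CF2 and 830, 855 and 828 in CF4. All primary libraries were above all CF libraries. HK2 was called lower in CF2 than in CEF2 (-0.73 ± 0.15, limma adjusted p = 0.000283) and in CF4 than in CEF4 (-1.09 ± 0.15, limma adjusted p = 3.46e-06). HK1, the widely expressed form, went opposite ways in the 2 lines. It was 3657 ± 51.4 in CEF2 and 5216 ± 15.2 in CF2, and 4988 ± 475 in CEF4 and 3525 ± 89.1 in CF4. The change was called higher in line 2 (0.51 ± 0.10, limma adjusted p = 0.000184) and lower in line 4 (-0.50 ± 0.10, limma adjusted p = 0.000257). Under quantile normalization the line 4 change was -0.12 and not called (limma adjusted p = 0.225). The log2 ratio of HK1 to HK2 was 1.27 ± 0.20 in CEF2 and 2.51 ± 0.04 in CF2, and 1.48 ± 0.15 in CEF4 and 2.07 ± 0.05 in CF4. The ratio was higher in CF without overlap in both lines, each with an exact permutation p of 0.1.

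PFKP, the platelet-type phosphofructokinase, differed between the immortal cells of the 2 lines. It measured 5209, 5265 and 5226 in CF2 but 1904, 1847 and 1930 in CF4. It measured 4809, 5203 and 5291 in SCF2 and 2183, 3042 and 2258 in SCF4. Both primary cultures were alike and high, at 5479 ± 265 in CEF2 and 5532 ± 187 in CEF4. The level of the immortal cells of line 4 was thus well below that of line 2. PFKP was called lower in CF4 than in CEF4 (-1.55 ± 0.09, limma adjusted p = 5.41e-11), and not called in CF2 against CEF2 (-0.07 ± 0.09, limma adjusted p = 0.549). The difference between those 2 changes was not tested.

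ENO1 encodes the common enolase. CEF4 libraries held 62052, 69054 and 83909 against 36372, 30851 and 30602 in CEF2. CEF4 was above CEF2 without overlap, by 1.13 ± 0.13 on the log2 scale (limma adjusted p = 9.13e-06). CF2 libraries held 43863, 44989 and 44364, and CF4 libraries 37299, 37174 and 38082. The immortal lines lay between the primary cultures. CF2 was called higher than CEF2 (0.45 ± 0.11, limma adjusted p = 0.00112) and CF4 lower than CEF4 (-0.92 ± 0.11, limma adjusted p = 4.3e-07). Quantile normalization turned the line 4 change to 0.71 (limma adjusted p = 2.14e-05), so its direction depends on the scaling.

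CEF4 against CEF2 compares the primary cultures of the 2 breeds. Of the 8 genes tested, 4 were called higher and the other 4 were not called, beside 39.1% of all genes called (16.7% higher and 22.4% lower). The 4 were ENO1, SLC16A3 (0.83 ± 0.14, limma adjusted p = 0.000276), HK1 (0.44 ± 0.12, limma adjusted p = 0.00975) and LDHA (0.43 ± 0.08, limma adjusted p = 0.000793). edgeR and DESeq2 on the recovered reads called these same 4. Under quantile normalization 2 were called higher, ENO1 and SLC16A3, and LDHB was called lower, while LDHA was -0.20. Skeletal muscle markers (7 of 9 listed in the table) summed to 11244 to 12691 in CEF2 and 311 to 383 in CEF4. Cartilage markers (8 of 8) summed to 254035 to 377797 in CEF4 and 7335 to 8159 in CEF2. Their part in these differences, and in those of CEF from CF or SCF, was not tested.

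Attached immortal cells against primary cells gave different counts in the 2 lines. In CF2 against CEF2, 2 of 8 were called higher (HK1, ENO1) and 3 lower (SLC2A1, HK2, SLC16A3), where 72.2% of all genes were called (29.6% higher and 42.6% lower). In CF4 against CEF4, 1 was called higher (SLC2A1) and 6 lower (HK1, HK2, PFKP, ENO1, LDHA, SLC16A3), where 70.2% of all genes were called (31.2% higher and 39.0% lower). Under quantile normalization 3 were called higher (SLC2A1, ENO1, LDHA) and 3 lower (HK2, PFKP, SLC16A3) in line 4. With most genes called in both lines, a call by itself does not set these genes apart. HK2 and SLC16A3 were called lower in both lines as deposited, under TMM scaling and under quantile normalization. The median change of all genes was -0.18 in line 2 and -0.11 in line 4, and quantile normalization moved it to 0.19 and 0.15. Against that median, LDHA was -0.58 in line 4 as deposited and 0.78 under quantile normalization. SLC16A3 was -0.15 and -0.57 against it in line 2, and -1.93 and -1.91 in line 4. By share of reads SLC16A3 overlapped in line 2, at 0.0368% in library 3 of CF2 and 0.0365% in library 2 of CEF2.

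For suspension against primary cells the values are a description. In SCF2 against CEF2 the log2 differences were -0.61 ± 0.11 for SLC2A1, 0.59 ± 0.12 for HK1, -0.48 ± 0.17 for HK2 and -0.10 ± 0.11 for PFKP. They were 0.39 ± 0.13 for ENO1, -0.28 ± 0.08 for LDHA and 0.30 ± 0.13 for LDHB. In SCF4 against CEF4 they were -0.44 ± 0.11 for SLC2A1, -0.33 ± 0.12 for HK1, -0.74 ± 0.17 for HK2 and -1.16 ± 0.11 for PFKP. They were -0.56 ± 0.13 for ENO1, -0.51 ± 0.08 for LDHA and 0.57 ± 0.13 for LDHB. SLC2A1, HK2, PFKP, SLC16A1 and SLC16A3 were below and LDHB above the primary cells in both lines, although PFKP in line 2 moved by less than its SE. HK1 and ENO1 went opposite ways. LDHA was below in both lines as deposited. Under quantile normalization LDHA was 0.23 in line 2 and 1.21 in line 4, and ENO1 was 1.30 in line 4. The median of all genes was -0.08 and -0.04 as deposited and 0.19 and 0.15 under quantile normalization. The authors' deposited table listed 7 of the 10 symbols, and after reading its sign as primary minus suspension it gave 0.44 in line 2 and 0.77 in line 4 for PGK1.

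SCF against CF compares suspension with attached immortal cells of the same line number. In SCF2 against CF2, 1 of 8 genes was called higher (LDHB) and 3 lower (SLC2A1, LDHA, SLC16A3), beside 43.5% of all genes called (25.2% higher and 18.3% lower). In SCF4 against CF4, 4 were called higher (PFKP, ENO1, LDHA, LDHB) and 1 lower (SLC2A1), beside 45.7% of all genes (27.3% higher and 18.4% lower). PFKP was 0.38 ± 0.09 in line 4 (limma adjusted p = 0.00311) and ENO1 0.36 ± 0.11 (limma adjusted p = 0.0102). The ENO1 call was lost with edgeR on the recovered reads (0.27, adjusted p = 0.0516) and without replicate 2 of SCF4 (0.27, limma adjusted p = 0.0593). LDHA was -0.24 ± 0.06 in line 2 (limma adjusted p = 0.00552) and 0.18 ± 0.06 in line 4 (limma adjusted p = 0.0278). The line 4 call of LDHA was lost under TMM scaling (0.08, limma adjusted p = 0.316), with edgeR (0.08, adjusted p = 0.412), with DESeq2 (0.08, adjusted p = 0.286) and in 4 of 6 fits that left out 1 library.

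The difference between the 2 lines was tested as line 4 minus line 2 of the change from attached to suspension. Of 8 genes, 5 were called, all in the direction of a higher change in line 4, beside 36.2% of all genes called (17.6% in that direction and 18.6% in the other). The difference was 0.64 ± 0.17 for SLC16A3 (limma adjusted p = 0.00559), 0.41 ± 0.09 for LDHA (limma adjusted p = 0.00138) and 0.42 ± 0.13 for PFKP (limma adjusted p = 0.0203). It was 0.43 ± 0.15 for ENO1 (limma adjusted p = 0.0359) and 0.44 ± 0.16 for LDHB (limma adjusted p = 0.0395). The ENO1 and LDHB calls were each lost in 10 of 12 fits that left out 1 library, with limma adjusted p up to 0.0928 and 0.0918. The PFKP call was lost without replicate 1 of SCF2 (0.38, limma adjusted p = 0.0508). LDHB was also not called with the replicate block (0.44, limma adjusted p = 0.0554), and SLC2A1 was then called (-0.33, limma adjusted p = 0.049). Under quantile normalization LDHB was not called (0.29, limma adjusted p = 0.105) and SLC2A1 was called in the other direction (-0.45, limma adjusted p = 0.0166). DESeq2 (-0.37, adjusted p = 0.028) and 2 of 12 fits that left out 1 library also called SLC2A1 in that direction.

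**Figure D3:**
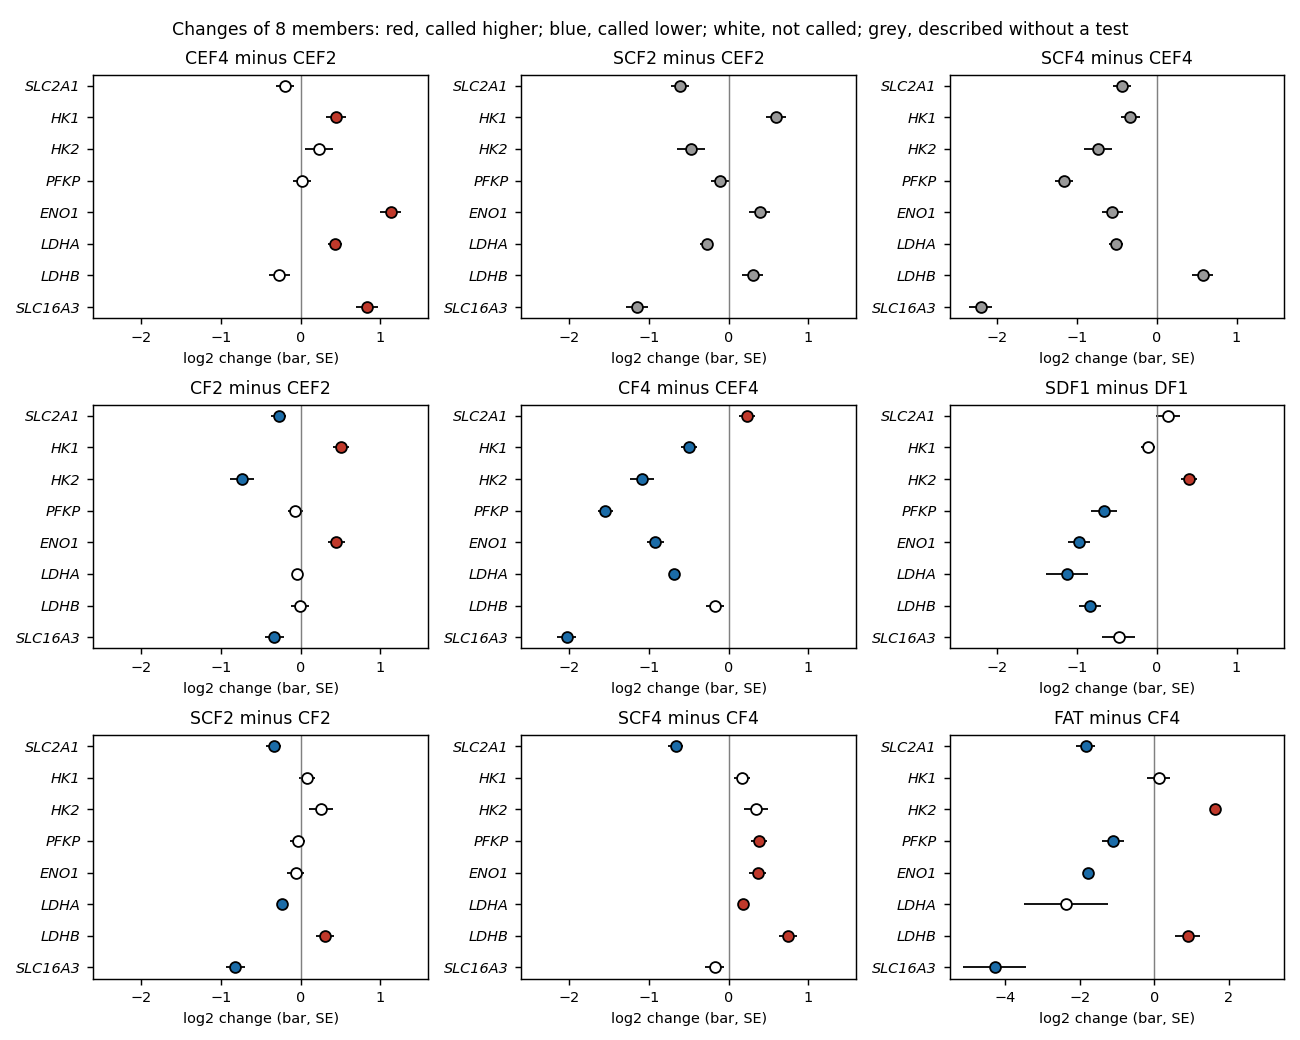
Log2 change (x axis) with its standard error (bar) of 8 genes in 9 comparisons, as limma fitted them to log2 of normalized reads plus 1. Filled red and blue points were called higher and lower, white points were not called, and grey points are described without a test. SLC16A3 and HK2 lie left of 0 in both lines for CF minus CEF, and the FAT panel has a wider axis.

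SDF1 against DF1 makes the same comparison in an established line. LDHA measured 24718, 25974 and 58945 in DF1 and 15233, 15181 and 15569 in SDF1. LDHB measured 6827, 7146 and 4548 in DF1 and 3363, 3419 and 3402 in SDF1. ENO1 measured 45359, 48298 and 31012 in DF1 and 20589, 20630 and 21096 in SDF1. All SDF1 libraries were below all DF1 libraries for these 3 genes, although library 3 of DF1 was high for LDHA and low for LDHB and ENO1. Of 9 genes tested, 4 were called lower (PFKP, ENO1, LDHA, LDHB) and 1 higher (HK2), beside 47.9% of all genes called (27.5% higher and 20.4% lower). The log2 changes were -1.13 ± 0.26 for LDHA (limma adjusted p = 0.00497), -0.97 ± 0.14 for ENO1 (limma adjusted p = 0.000244) and -0.83 ± 0.14 for LDHB (limma adjusted p = 0.000674). Without library 3 of DF1 they were -0.73, -1.17 and -1.04, all called by limma. PFKP was 6141 ± 1917 in DF1 and 3758 ± 54.4 in SDF1 (-0.67 ± 0.16, limma adjusted p = 0.00623), and the change was -0.42 without library 3 of DF1. HK2 was 743 ± 122 in DF1 and 976 ± 23.5 in SDF1 (0.41 ± 0.10, limma adjusted p = 0.00777).

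Several of these values moved when library 3 of DF1 was left out. That library held 76637 normalized reads of VIM, a fibroblast marker, against 16180 and 18172 in the other DF1 libraries. The endothelial marker CDH5 was 2453 there against 139 and 159, while PECAM1, another, was 17.1 against 9.97 and 11.6. All 8 endothelial markers summed to 6482 there against 1488 and 1444, and all 10 fibroblast markers to 154517 against 64369 and 72181. What sets that library apart was not tested. Without it, 2 genes were called higher (SLC2A1, HK2) and 5 lower (PFKP, ENO1, LDHA, LDHB, SLC16A3). Of all genes, 8683 of 11749 were called without it against 5667 of 11834 with it. Most genes were thus called without it, and a call there does not by itself set these genes apart. SLC2A1 moved from 0.14 to 0.36 (limma adjusted p = 0.452 and 1.38e-06). SLC16A3 moved from -0.48 to -0.16 (limma adjusted p = 0.0779 and 0.000932), so its call there came with a smaller change. SLC16A3 was also called lower, with larger changes, by edgeR (-0.62, adjusted p = 0.0393) and DESeq2 (-0.65, adjusted p = 0.0146) on the recovered reads. So it was under quantile normalization (-0.51, limma adjusted p = 0.0334) and without library 1 (-0.62, limma adjusted p = 0.043) or library 2 of DF1 (-0.66, limma adjusted p = 0.0239). HK1 moved from -0.11 to -0.0011 and was called in neither fit, but was called lower under quantile normalization (-0.19, limma adjusted p = 0.0266). The log2 ratio of LDHA to LDHB was 1.86, 1.86 and 3.70 in DF1 and 2.17 ± 0.02 in SDF1. Its difference was -0.30 with all libraries (exact permutation p = 1) and 0.32 without library 3 of DF1. With only DF1 and SDF1 in the fit, LDHA (limma adjusted p = 0.0579), PFKP (0.067) and HK2 (0.0768) were not called, and 3619 genes were.

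FAT against CF4 shares the breed label and compares fat with immortal fibroblasts. Of the 8 genes other than SLC16A1, 2 were called higher (HK2, LDHB) and 4 lower (SLC2A1, PFKP, ENO1, SLC16A3), where 74.3% of all genes were called (45.4% higher and 28.8% lower). HK2 held 2605, 2897 and 2295 normalized reads in FAT, above every cultured library, and its change from CF4 was 1.63 ± 0.11 (limma adjusted p = 1.53e-06). As a share of all reads, HK2 was 0.0169%, 0.0216% and 0.0145% in FAT libraries 1, 2 and 3. Library 3 of CEF4 held 0.0172%, so by that share FAT libraries 1 and 3 were not above every cultured library. SLC2A1 held 734, 853 and 380 (-1.84 ± 0.26, limma adjusted p = 0.0002) and ENO1 held 10835, 9309 and 12734 (-1.79 ± 0.13, limma adjusted p = 3.24e-06). Both were below every cultured library. PFKP held 835, 1472 and 561, also below CF4 (-1.10 ± 0.29, limma adjusted p = 0.00753, and -0.77 without library 3). The median change of all genes was 0.40 as deposited and -0.23 under quantile normalization, and relative to that median HK2 was 1.23 and 1.56 higher.

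LDHA and HK1 spread widely within FAT, beside the muscle markers. LDHA measured 1246, 4674 and 60312 in FAT libraries 1, 2 and 3, and its change from CF4 was -2.37 ± 1.13 and not called (limma adjusted p = 0.0872). Without library 3 of FAT it was -3.92 (limma adjusted p = 4.96e-05). LDHB measured 3304, 4392 and 9438, so the log2 ratio of LDHA to LDHB was -1.41, 0.09 and 2.68. The ratio was below CF4 in all FAT libraries (difference -3.27, exact permutation p = 0.1), and leaving out 1 library moved the difference between -4.38, without library 3, and -2.34, without library 1. HK1 measured 2871, 2793 and 6991, and its change of 0.12 ± 0.31 became -0.32 without library 3 (limma adjusted p = 0.000285) and -0.42 under quantile normalization. The summed skeletal muscle markers were 19865, 66794 and 939620 in the same libraries, against at most 1.93 in CF4. ACTA1, skeletal muscle actin, was 14272, 50631 and 743529. The adipocyte markers FABP4 and PLIN1 ran the other way, and the part of muscle RNA in these values was not tested. LDHB was called higher in FAT (0.90 ± 0.32, limma adjusted p = 0.032), and was 0.46 without library 3 (limma adjusted p = 0.00382). It was not called under TMM scaling (0.60, limma adjusted p = 0.135), quantile normalization (0.33, limma adjusted p = 0.29) or with only FAT and CF4 in the fit (limma adjusted p = 0.0741). As a share of all reads, LDHB was 0.0214%, 0.0328% and 0.0595% in FAT libraries 1, 2 and 3 and 0.0332% to 0.0353% in CF4. By that share FAT libraries 1 and 2 lay below CF4 and library 3 above it. CF libraries scatter little, so p-values of FAT and DF1 in these shared fits may be too small. The same holds for CEF and SCF where they were fitted together with CF.

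**Figure D4:**
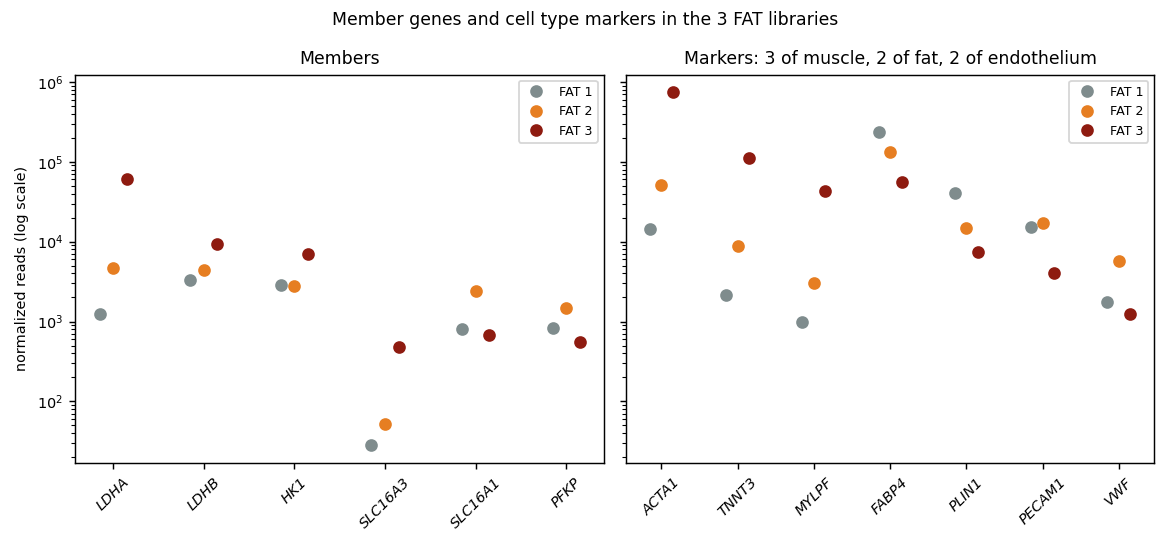
Normalized reads (log axis) of 6 of the genes and of 7 cell type markers in FAT libraries 1, 2 and 3 (colours). LDHA is 1246 in library 1 and 60312 in library 3, where ACTA1 is 14272 and 743529, and FABP4 and PLIN1 are lowest in library 3.

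Other genes of the pathway were taken from 5 lists, each given by its counts. In the hypoxia list, which holds oxygen sensing factors and their known targets, 14 of 19 genes were called lower and 4 higher in SCF2 against CEF2. In SCF4 against CEF4 14 were lower and 3 higher. Of all genes, 66.8% were called in line 2 (29.8% higher and 37.1% lower) and 64.3% in line 4 (30.5% higher and 33.8% lower). Quantile normalization gave 13 lower in each line. The list's median was -0.94 and -1.19, beside -0.08 and -0.04 for all genes. HIF1A, the oxygen-regulated subunit of the hypoxia factor, was 5323 ± 381 in CEF2 and 3457 ± 262 in SCF2 (-0.62 ± 0.10, limma adjusted p = 6.33e-05). It was 16387 ± 1126 in CEF4 and 4151 ± 320 in SCF4 (-1.98 ± 0.10, limma adjusted p = 3.29e-10). P4HA1, a collagen prolyl hydroxylase, was called lower by -1.34 ± 0.09 and -2.74 ± 0.09 (limma adjusted p = 1.2e-08 and 5.12e-12). HIF1A and the line 2 value of P4HA1 were chosen after their values were seen, so their p-values are a description only. ARNT2, a dimer partner of such factors, had 0 reads in SCF2 and CF2 against 196 ± 35.1 in CEF2. With 0 reads there, ARNT2 could only be called lower in line 2, and was not left out of the counts. ADM, which encodes the secreted peptide adrenomedullin, went the other way. It was 212 ± 26.9 in CEF2 and 1333 ± 86.5 in SCF2 (limma adjusted p = 4.78e-10). It was 31.2 ± 4.47 in CEF4 and 1467 ± 165 in SCF4 (limma adjusted p = 2.48e-13). In the attached lines 13 of 19 were called lower and 3 higher in CF2 against CEF2, and 15 lower and 3 higher in CF4 against CEF4. Of all genes, 72.2% were called there in line 2 (29.6% higher and 42.6% lower) and 70.2% in line 4 (31.2% higher and 39.0% lower).

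Of 21 other glycolysis genes in the table, 11 were called lower and 3 higher in SCF2 against CEF2, and 10 lower and 3 higher in SCF4 against CEF4. The total called was near the share of all genes called, 66.8% in line 2 and 64.3% in line 4. Their medians were -0.55 and -0.14. Quantile normalization gave 9 lower and 9 higher in line 2, and 7 lower and 9 higher in line 4, so the balance of this list depends on the scaling. Over all genes, the share of calls that were higher was 44.5% as deposited and 58.5% after quantile normalization in line 2, and in line 4 it was 47.4% and 57.0%. ENO2, the neuronal enolase, was 305 ± 43.3 in CEF2 and 63.1 ± 17.6 in SCF2, and 530 ± 64.7 in CEF4 and 56.7 ± 5.86 in SCF4 (limma adjusted p = 1.41e-07 and 3.81e-09). PFKL, the liver-type phosphofructokinase, was -1.51 ± 0.15 in line 2 and -2.38 ± 0.15 in line 4 (limma adjusted p = 7.36e-07 and 5.86e-09). GAPDH was -1.18 ± 0.11 in line 4 (limma adjusted p = 2.96e-07), and 0.37 under quantile normalization (limma adjusted p = 0.0114). GAPDH and the line 2 value of PFKL were chosen after their values were seen, so their p-values are a description only.

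Of 16 other monocarboxylate carriers and partners in the table, 13 were tested in these fits, with 7 lower and 3 higher in line 2 and 4 lower and 5 higher in line 4. Of all genes, 66.8% were called in line 2 (29.8% higher and 37.1% lower) and 64.3% in line 4 (30.5% higher and 33.8% lower). Under quantile normalization the line 2 counts were 4 lower and 6 higher. BSG (basigin), a chaperone that SLC16A1 and SLC16A3 need to reach the membrane in mammals, was called lower in both suspension lines, by -0.78 ± 0.11 and -1.26 ± 0.11 (limma adjusted p = 2.21e-05 and 1.6e-07). Its line 2 value was chosen after it was seen, so that p-value is a description only. EMB (embigin), a related chaperone, had 0 reads in SCF2 and SCF4 against 35.5 ± 1.8 and 17.9 ± 5.88 in CEF2 and CEF4. EMB passed the filter on low values only through the CEF libraries. It could therefore only be called lower, and was not left out of the counts.

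Of 12 genes for pyruvate entry to mitochondria, 3 were lower and 3 higher in line 2, and 2 lower and 6 higher in line 4. Of all genes, 66.8% were called in line 2 (29.8% higher and 37.1% lower) and 64.3% in line 4 (30.5% higher and 33.8% lower). PDK4, a kinase that inhibits pyruvate dehydrogenase, had 0 reads in SCF2 and SCF4 against 36.8 ± 1.22 and 25.3 ± 6.46 in the primary cells. PDK4 too passed the filter only through the CEF libraries, could only be called lower and was not left out of the counts. In FAT it was 8319 ± 10513 against 0 in CF4, a level with a wide spread. Of the gluconeogenesis and pentose phosphate genes 11 were tested, with 4 lower and 6 higher in line 2 and 3 lower and 4 higher in line 4. The same shares of all genes stand beside these counts. Leaving out 1 library gave 1 to 2 lower and 6 higher in line 2, and 2 to 3 lower and 4 higher in line 4. TALDO1, transaldolase, was called higher by 1.53 ± 0.18 and 1.38 ± 0.18 (limma adjusted p = 4.72e-06 and 1.4e-05).

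**Figure D5:**
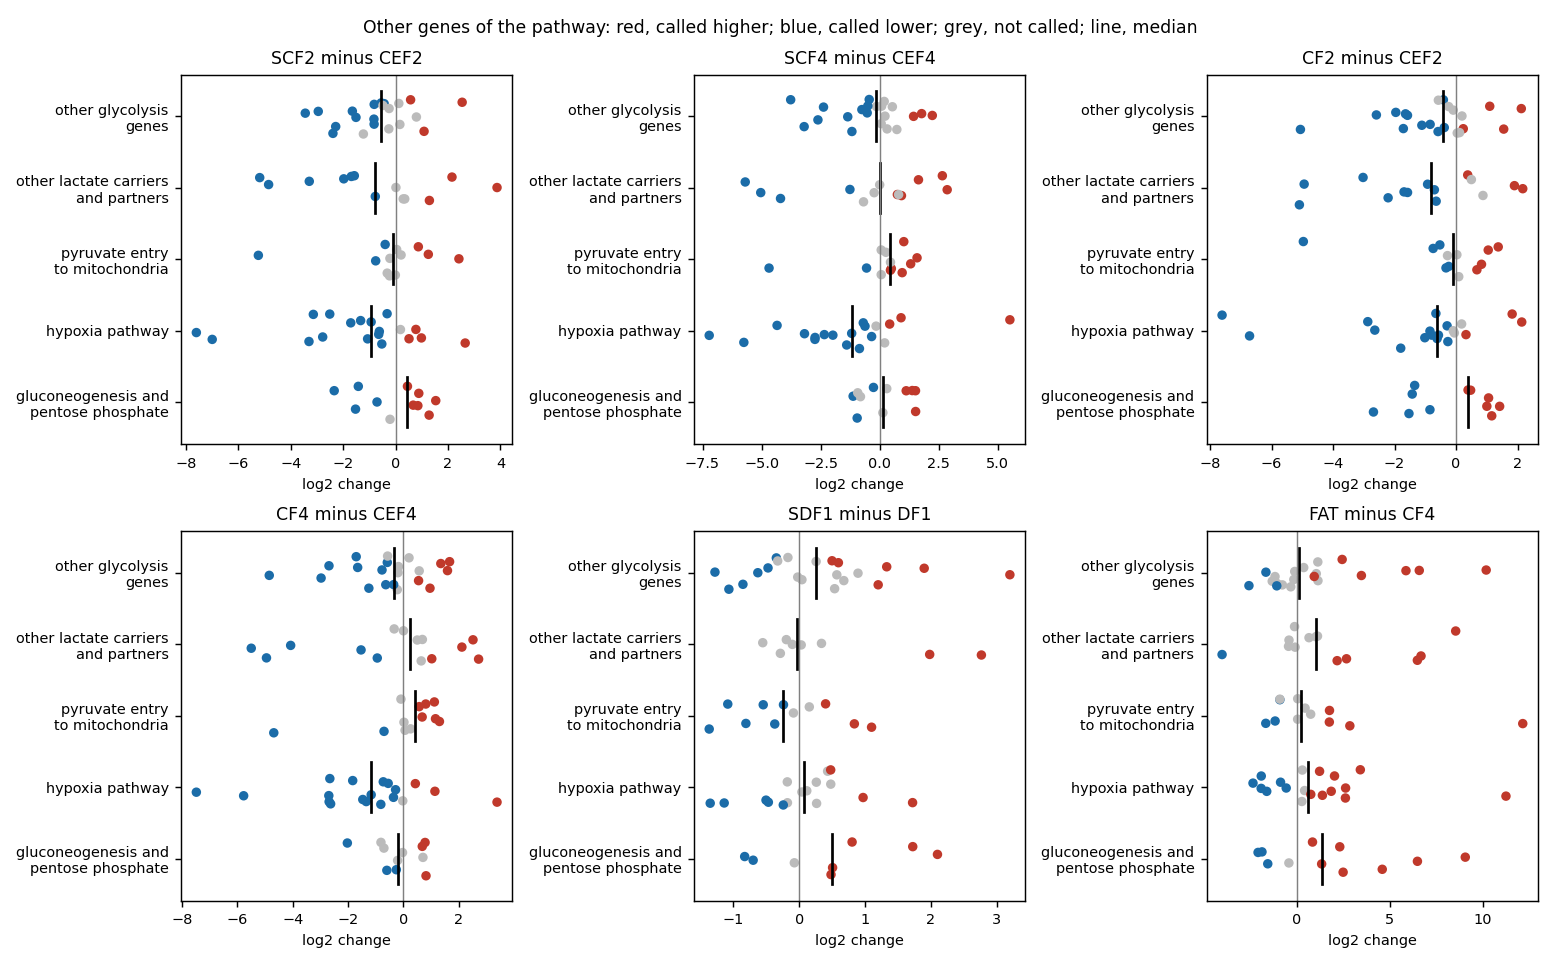
Log2 change (x axis) of every tested gene of the 5 lists in 6 comparisons, coloured red or blue where limma called it higher or lower and grey where it did not, with a line at the list's median. In the hypoxia list most points lie left of 0 in the CEF comparisons, with medians from -0.62 to -1.19, and in the other glycolysis list the balance of calls changes under quantile normalization.

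In SDF1 against DF1, 6 of 21 other glycolysis genes were called lower and 6 higher, beside 47.9% of all genes called (20.4% lower and 27.5% higher). TPI1, GPI and PGAM1, which act between hexokinase and enolase, were called lower by -1.07 ± 0.05, -1.28 ± 0.09 and -0.85 ± 0.08 (limma adjusted p = 2.83e-07, 1.8e-06 and 8.67e-06). PFKFB4, which sets the level of a phosphofructokinase activator, was called higher by 3.20 ± 0.24 and HK3, another hexokinase, by 1.33 ± 0.16 (limma adjusted p = 2.8e-06 and 7.78e-05). Without library 3 of DF1 the counts were 9 lower and 8 higher, where 8683 of 11749 genes were called. VEGFA, a growth factor of the hypoxia list, rose from 777 ± 58.2 to 1521 ± 21.4 (limma adjusted p = 9.69e-07), in a list with 5 lower and 3 higher of 16 tested.

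Genes with a pattern most like a member were taken as the 5 highest Pearson correlations of log2 group means over the 9 groups. For SLC16A1 they were TCEANC2, PLA2G4A, ASPHD1, IGSF3 and PHLDB1, with r from 0.992 to 0.998. IGSF3 had 0 reads in CF2, CF4, SCF2 and SCF4 and means of 1657 in CEF2 and 1227 in CEF4. TCEANC2, the highest in r, had means of 202 in CEF2 and 207 in CEF4. It stayed at 67.2 in CF2, 69.6 in CF4, 73.0 in SCF2 and 76.3 in SCF4. The r thus does not take the size of a change into account. For SLC16A3 they were TMEM214, KDM3A, SLC33A1, EMC1 and SLC7A3 (r from 0.973 to 0.986), and KDM3A is also in the hypoxia list. For LDHB they were ACP1, TOMM20, RFXANK, HSD17B11 and SNX11 (r from 0.887 to 0.924). Among the members themselves, LDHA and ENO1 were most alike (r = 0.960), and SLC16A1 and SLC16A3 were not alike over the 9 groups (r = -0.030). Each r above includes FAT and was not computed without it. The FAT means were 1290 for SLC16A1, 186 for SLC16A3, 10960 for ENO1 and 22077 for LDHA, whose FAT libraries held 1246, 4674 and 60312. SLC16A1 and SLC16A3 both had their highest means in CEF4 and then CEF2. In CF2 the mean was 0 for SLC16A1, its lowest, and 3252 for SLC16A3. The correlations are descriptions over 9 group means that share a scaling, with no test.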

How the data were processed

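Expression of 27 libraries was taken from 1 table of normalized reads per gene symbol. Per the labels, libraries were made with the NuGEN Trio kit and sequenced paired-end. The deposited signal, named TPM by the authors, is read here as a read number divided by a single factor for each library. The columns sum to 8.03 to 15.87 M, and 100% of the values were whole multiples of that library's step within 0.01. The submitters' processing notes name Bowtie2, RSEM, DESeq2 and galGal6, with neither roles nor versions, and no source here says how the factors were set. A second deposited table by the authors gives a log2 fold change and adjusted p-value for primary and suspension cells. Its sign was read from correlations of -0.977 and -0.976 with the values computed here. The deposited count table has Ensembl identifiers without symbols and was not used here. In 17 rows the symbol had become a date. Libraries held 4.6 to 28.7 M recovered reads, and low genes are the least precise.

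limma 3.58.1 (eBayes with trend and robust) was fitted to log2 of normalized reads plus 1, so changes of low genes are understated. A gene was kept with 1 or more in at least 3 fitted libraries and called at an adjusted p under 0.05 (Benjamini-Hochberg over all genes tested). CEF and SCF were fitted on 12 libraries, comparisons with CF on 18, and SDF1 with DF1, and FAT, each together with CF2 and CF4. Ratios within libraries used two-sided exact permutation tests. The members and lists were chosen with earlier results of these data known. Pathway genes were named as up to 3 called in each direction by smallest adjusted p per list and comparison. Beyond that rule, HIF1A and GAPDH, and the line 2 values of PFKL, BSG and P4HA1, were chosen after their values were seen. Some genes that the rule names are not reported here. Equal replicate numbers did not pair libraries (correlations of residuals from -0.215 to 0.092), so the fits had no block. Alternatives were a pseudocount of 0.1, no filter or a filter of 10, quantile normalization, TMM scaling, a replicate block, only the compared groups, edgeR 4.0.16 and DESeq2 1.42.0 on the recovered reads, and leaving out each library. The fits were also run on simulated reads in which every gene and group had the same spread beyond counting error. The real groups scatter unequally, so that run does not bear on the p-values of the shared fits. R 4.3.3 and Python 3.11.15 were used.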

Additional observations from a re-analysis of the deposited data

Results flagged for a closer look

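In 1 limma fit, the change from attached to suspension cells differed between the 2 lines for 5 of the 8 genes tested. Of all genes, 36.2% were called in the same test (17.6% higher in line 4 and 18.6% lower). Line 4 minus line 2 was 0.642 on the log2 scale for SLC16A3, 0.414 for LDHA, 0.419 for PFKP, 0.427 for ENO1 and 0.441 for LDHB. The SLC16A3 and LDHA calls held in all 12 fits that left out 1 library, the PFKP call in 11, and those of ENO1 and LDHB in 2 each. SCF and CF come from different deposited sets, and the cause of these differences was not tested.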

How the results depend on the processing

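Of the members' values under the alternatives, 1244 were counted as unchanged, 60 lost a call, 21 gained one and 30 changed sign. A further 31 untested values moved by more than the replicate spread. Unchanged meant the same direction and side of the threshold for a tested value, and a move within the replicate spread for an untested one. The cause was not tested. Quantile normalization changed the sign of LDHA (-0.20 in CEF4 minus CEF2, 0.23 in SCF2 and 1.21 in SCF4 minus CEF, 0.49 in CF2 and 0.94 in CF4 minus CEF), ENO1 (1.30 in SCF4 and 0.71 in CF4 minus CEF4), LDHB (0.0581 in CF4 minus CEF4), PFKP (-0.15 in CEF4 minus CEF2) and HK1 (-0.0938 in the line difference and -0.42 in FAT minus CF4). TMM scaling gave LDHB 0.0226 in CF2 minus CEF2 and HK1 -0.0303 in SCF2 minus CF2 and -0.18 in FAT minus CF4. On recovered reads edgeR gave 0.0123, -0.0309 and -0.0780 for these, and PFKP was -0.0011 with edgeR and -0.0008 with DESeq2 in CEF4 minus CEF2.

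Leaving out 1 library, PFKP ranged from -0.0105 to 0.0537 in CEF4 minus CEF2 and from -0.0650 to 0.0038 in SCF2 minus CF2, LDHB from -0.0669 to 0.0958 in CF2 minus CEF2, and ENO1 from -0.1230 to 0.0073 in SCF2 minus CF2. In the line difference HK1 ranged from -0.0696 to 0.1700 and HK2 from -0.1155 to 0.2337, and HK1 from -0.32 to 0.3463 in FAT minus CF4. The LDHA to LDHB ratio ranged from -0.1543 to 0.0231 in CF2 minus CEF2 and from -0.60 to 0.32 in SDF1 minus DF1, and the SLC16A1 to SLC16A3 ratio from -0.2747 to 0.1434 in CEF4 minus CEF2. Genes called in SDF1 minus DF1 (5667) ranged from 4646 to 8683, and were 3619 with only those groups fitted. With a pseudocount of 0.1 the SLC16A1 to SLC16A3 ratio was -12.07 and -10.19 in SCF minus CEF, -14.78 and -13.15 in CF minus CEF, and 2.71 and 2.96 in SCF minus CF (line 2 and line 4).

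Shares of called genes that were higher moved under quantile normalization from 42.7% to 51.5% (CEF4 minus CEF2), 44.5% to 58.5% (SCF2 minus CEF2), 47.4% to 57.0% (SCF4 minus CEF4), 41.0% to 58.2% (CF2 minus CEF2), 44.4% to 57.3% (CF4 minus CEF4), 57.4% to 47.3% (SDF1 minus DF1) and 61.2% to 44.1% (FAT minus CF4), and under TMM from 58.0% to 46.9% (SCF2 minus CF2). Replicate numbers do not pair libraries. With the replicate block, LDHB in SCF2 minus CF2 was 0.31 (limma adjusted p = 0.0519), LDHB in the line difference 0.44 (0.0554) and SLC2A1 there -0.33 (0.049). The planned edgeR test on the deposited counts was not run, since those identifiers have no symbols here.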
